A study of Mus musculus with 2 samples.

Results

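Genes that mark hepatic stellate cells and fibroblasts, together with the glycoproteins and proteoglycans of the extracellular matrix, were examined in laser-captured areas of PiZ mouse liver. The set was a named list of 48 genes, and a gene was measured where a probe set of the array named it and no other gene. This held for 44 of the 48, out of 30142 genes measured in this way. Probe sets for Pdgfra and Ecm1 also name a microRNA, and no probe set listed here names Fbn1 or Efemp2. Hepatocyte areas with globules were set against areas without globules. Both came from untreated PiZ mice of strain C57BL/6 on standard chow, aged 3 months, which carry the human mutant alpha-1-antitrypsin (ATZ) gene with its own promoter. Each group was 1 array of RNA pooled from 2 mice, so the differences below have no replicate check, and no test or error was computed. The labels do not say whether the same mice gave both pools, no animal without the transgene was included, and the areas were chosen by the look of the stained section.

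Hepatic stellate cells lie between hepatocytes and the sinusoidal endothelium and store vitamin A as retinyl ester. When activated they become contractile, matrix-secreting myofibroblasts, and fibroblasts of the portal tract can do the same. The matrix they lay down holds fibrillar collagens, small leucine-rich proteoglycans that bind and space the fibrils, elastic fibres and adhesive glycoproteins. Hepatocytes also secrete some of these proteins, above all plasma fibronectin.

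Values are log2 signals, each from 1 probe set for the 44 genes and averaged over the probe sets of any other gene with several, and a difference is the signal in globule-containing minus that in globule-free areas. Background was the 95th percentile of 1719 probe sets for olfactory and vomeronasal receptors, which lay at 4.85 on the globule-containing and 5.04 on the globule-free array. Differences of these receptor probe sets ran from -0.88 to 0.43 between their 2.5th and 97.5th percentiles, with a median of -0.19. Of the 1719, 4 (0.233%) were higher by 2-fold or more in globule-containing areas. Where only globule-free areas lay at background, the fold is a lower bound ("at least"), taken against the background level of that array. The brightest hepatocyte genes, such as that of albumin, were at the top of the scale on both arrays. Albumin had 19.90 in globule-containing areas against 19.80 in globule-free areas, at the ceiling of both arrays. Because these are captured areas and not sorted cells, more cells of a type and more RNA per cell cannot be told apart.

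Globule-containing areas had higher signals for most stellate and matrix genes that the arrays could measure. The largest differences were those of the proteoglycans Lum, Dcn and Bgn and of the intermediate filament gene Vim, from 9.82-fold to 15.2-fold. Of the 44 genes, 24 were higher by 2-fold or more and 1, Fn1, was lower by as much, against 3.41% higher and 2.87% lower of all 30142 genes. The median difference of the 44 genes was 1.11, and that of all genes was -0.06. With dim values raised to background, 20 were higher by 2-fold or more. On both arrays, 11 of the 44 lay at background, and another 10 lay at background in globule-free areas alone. The other 23 were above background on both arrays. Of these, 17 were higher by 2-fold or more and 1 lower, with a median of 1.84, where 6.16% of 12917 such genes were higher and 5.59% lower, with a median of 0.04. The mean of both arrays reached the floor of 4.76 for 33 of the 44, and some of the 33 reached it through globule-containing areas alone. They hold the same 24 higher genes and Fn1, and their median was 1.57, where 6.47% of 15023 genes at or above the floor were higher, 5.26% were lower and the median was 0.05.

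**Figure D1:**
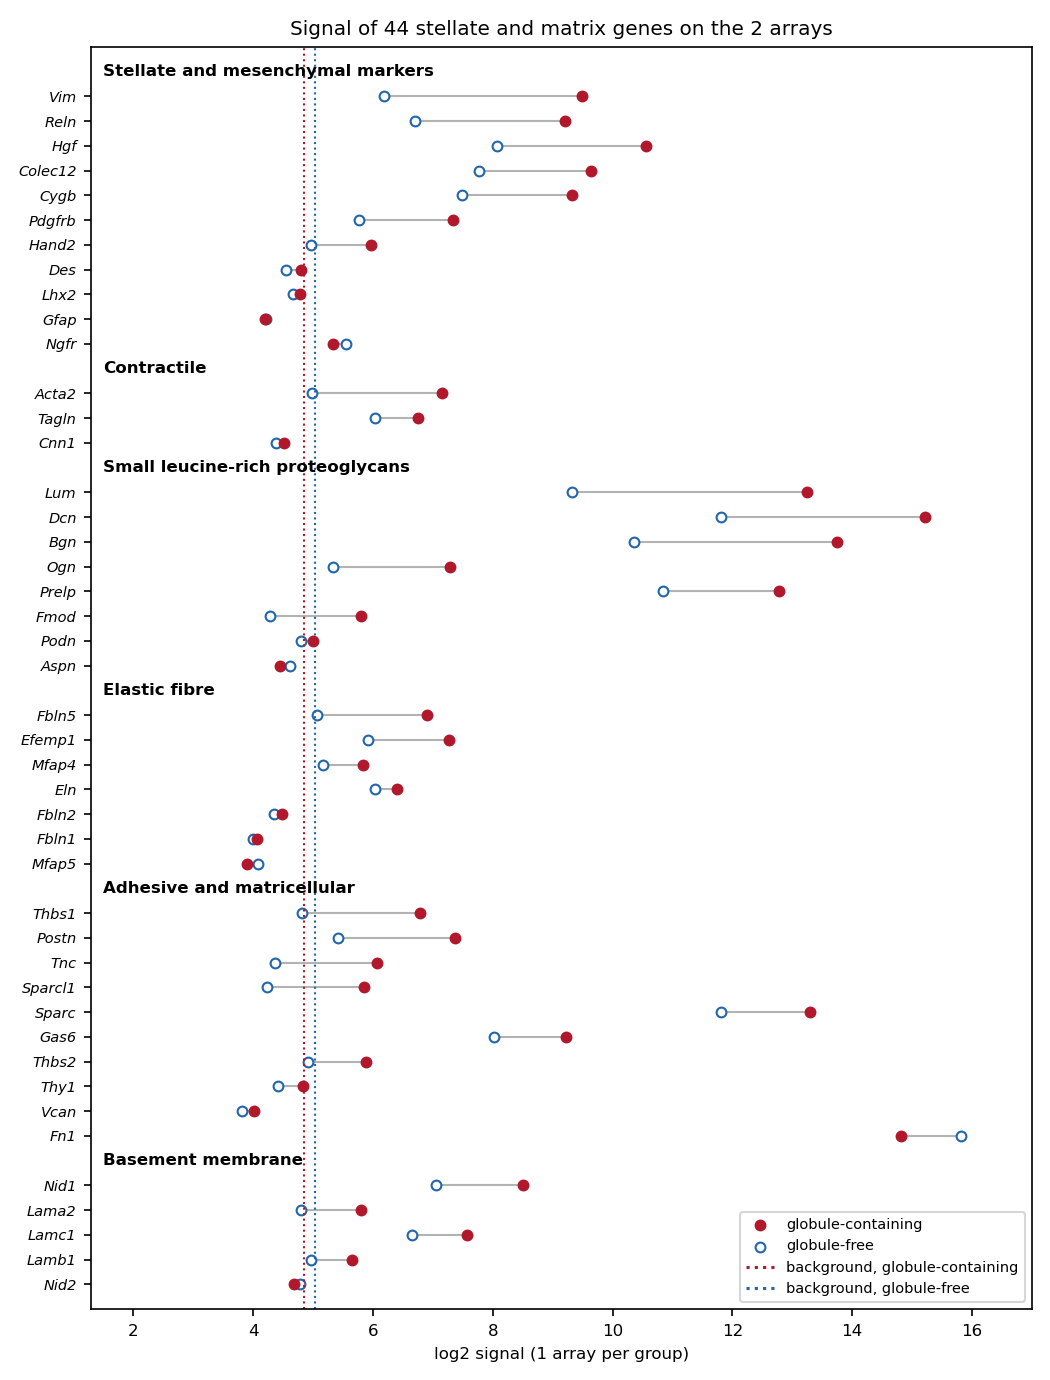
Log2 signal of each of the 44 genes in globule-containing (filled) and globule-free (open) areas, 1 array each, grouped by role. Dotted lines mark the background of each array, and the filled point lies to the right of the open one for most genes above background. The exceptions are Fn1, at 14.81 with globules against 15.82 without, and Ngfr, at 5.34 with globules against 5.56 without.

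Markers of other cells also differed between the arrays. Of 12 macrophage markers, 10 were higher by 2-fold or more in globule-containing areas and none lower. Their mean log2 signal was 10.39 there and 8.05 in globule-free areas, and all 12 were above background in globule-containing areas. The lysozyme gene Lyz2 had 17.96 with globules against 12.62 without, and Ctss, which encodes cathepsin S, had 15.15 with globules against 10.07 without. Of 10 markers of resident Kupffer cells, 5 were lower by 2-fold or more and 5 lay within 2-fold. The mean of the 10 was 6.68 in globule-containing areas against 7.85 in globule-free areas. Among the lower genes, the lectin gene Clec4f was 8.28-fold lower, the scavenger receptor gene Cd5l 6.41-fold and the complement receptor gene Vsig4 5.44-fold. The 5 within 2-fold were Adgre1, C1qa, C1qb, C1qc and Folr2, with differences from -0.08 (C1qc) to 0.12 (Adgre1). Of 13 hepatocyte markers, 5 were lower by 2-fold or more (Hal, Pck1, Cps1, Cyp2f2 and Serpina1c) and none was higher by as much. The other 8 lay within 2-fold, among them Fgb at -0.87, Ttr at -0.03 and Cyp2e1 at 0.12. Also among these 8, Alb and Tf lay at the ceiling of both arrays, where a difference could be hidden. Means of the 13 markers were 16.10 with globules and 17.38 without. Hal, which encodes histidine ammonia-lyase, had 6.89 with globules against 12.50 without, and Pck1 of gluconeogenesis had 14.17 with globules against 16.89 without. The part of these shifts in the results below was not tested.

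**Figure D2:**
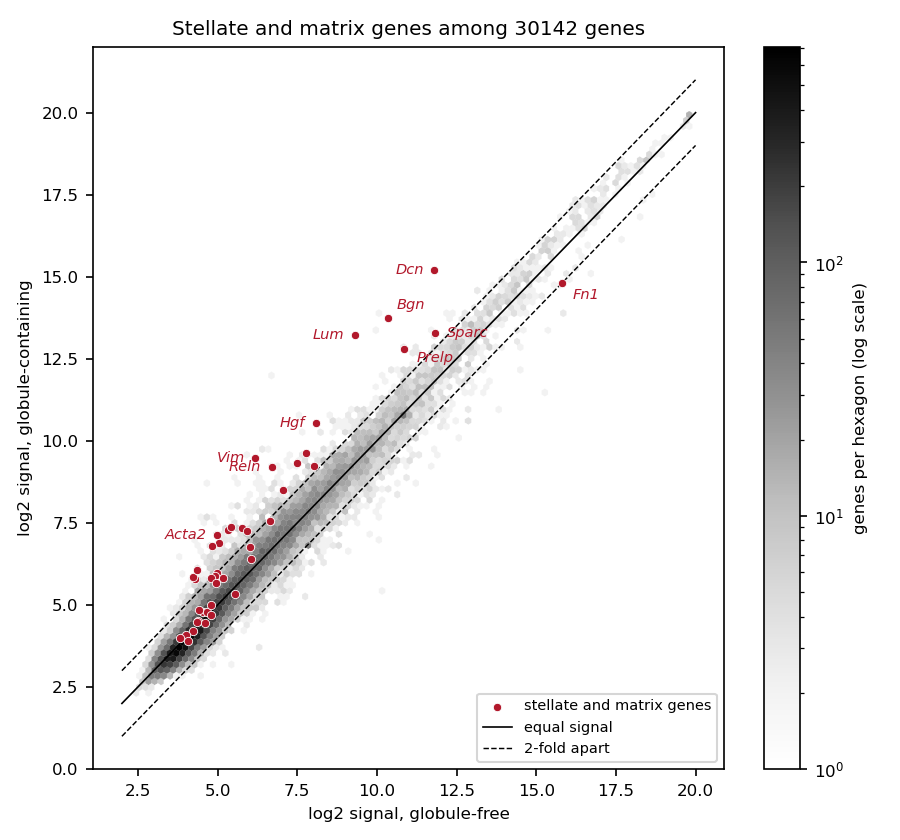
Log2 signal in globule-containing (vertical axis) against globule-free areas (horizontal axis) for 30142 genes, shaded by the number of genes per hexagon on a log scale. The 44 stellate and matrix genes are red points, 24 of them on or above the upper dashed line of a 2-fold difference, and Lum (13.24 with globules against 9.32 without) lies farthest above it.

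Markers of stellate cells included genes with higher signals in globule-containing areas and 3 classical markers that neither array detected. Of 11 measured genes in this group, 7 were higher by 2-fold or more and none lower, with a median difference of 1.57. With dim values raised to background, 6 were still higher by as much, without Hand2. Reln (probe set TC0500002028.mm.1) encodes reelin, a secreted glycoprotein made in the liver by stellate cells. Its signal was 9.21 in globule-containing areas against 6.70 in globule-free areas, 5.69-fold higher. Hgf encodes hepatocyte growth factor, the mitogen that stellate cells supply to hepatocytes. It had 10.56 in globule-containing areas against 8.08 in globule-free areas, 5.58-fold higher. Cygb, the stellate cell globin, had 9.31 with globules against 7.48 without and was 3.57-fold higher. Pdgfrb, the receptor for the stellate cell mitogen PDGF-BB, had 7.34 with globules against 5.77 without, 2.97-fold higher. Colec12, a scavenger receptor with a C-type lectin domain, had 9.64 with globules against 7.77 without, 3.65-fold higher. Among all 15023 genes at or above the floor, Reln ranked 123 and Hgf 129 from the highest difference.

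The transcription factor Hand2, which marks mesenchymal cells of the liver, had 5.97 in globule-containing areas against 4.97 in globule-free areas, where it lay at background, so it was at least 1.92-fold higher and was not among the genes called after loess or with dim values raised. A further 3 genes often used to mark stellate cells in rodents gave no measurable signal on either array. Des, which encodes desmin, had 4.80 in globule-containing areas against 4.56 in globule-free areas. Gfap, an intermediate filament of astrocytes and stellate cells, had 4.21 with globules and 4.22 without. Lhx2, a transcription factor that keeps stellate cells quiescent, had 4.79 with globules and 4.67 without. No level of these 3 genes can be given for either area. Ngfr, the low-affinity neurotrophin receptor p75, was above background on both arrays, at 5.34 with globules and 5.56 without.

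Vim encodes vimentin, the intermediate filament of mesenchymal cells, and is also expressed by macrophages and endothelium. Its signal was 9.48 in globule-containing areas against 6.19 in globule-free areas, 9.82-fold higher, and it ranked 60 of 15023. It stands beside 10 of 12 macrophage markers that were higher by 2-fold or more, among them Cd68 at 13.80 with globules against 10.07 without. The RefSeq promoter of Vim (GRCm38.p6, chr2:13574061-13574360, plus strand) is shown because Vim had the largest difference in the marker group and a TATA box near its start. The sequence runs from 250 bases before to 50 bases after the annotated start, and capitals mark the TATA box, which begins 32 bases before the start.
Vim: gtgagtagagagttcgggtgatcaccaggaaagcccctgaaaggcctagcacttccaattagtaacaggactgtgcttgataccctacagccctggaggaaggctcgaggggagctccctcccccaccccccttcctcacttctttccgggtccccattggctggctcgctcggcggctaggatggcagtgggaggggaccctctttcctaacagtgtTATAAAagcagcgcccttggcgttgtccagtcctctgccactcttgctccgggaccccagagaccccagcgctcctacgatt

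Of the contractile genes, Acta2 was higher by 2-fold or more, Tagln was not, and Cnn1 was not measurable. Acta2 encodes alpha smooth muscle actin, the standard marker of activated stellate cells and of vascular smooth muscle. It had 7.15 in globule-containing areas against 4.98 in globule-free areas, at background, and was at least 4.32-fold higher. Tagln encodes transgelin, an actin-binding protein of the same cells, and had 6.75 with globules against 6.03 without, a 1.65-fold difference. Cnn1, which encodes the smooth muscle protein calponin 1, lay at background on both arrays at 4.51 with globules and 4.39 without. Of 12 markers of smooth muscle and pericytes outside the set, 1 was higher by 2-fold or more and 5 lay at background on both arrays, among them Myh11, the smooth muscle myosin heavy chain, at 4.64 with globules and 4.51 without. The 1 higher gene was Abcc9, a potassium channel subunit of pericytes, at 9.22 with globules against 6.74 without. Mylk, the myosin light chain kinase gene, and Kcnj8, a potassium channel gene, were 1.57-fold and 1.29-fold higher. Mean signals of these 12 markers were 5.30 in globule-containing areas against 4.98 in globule-free areas.

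The promoters of Acta2 (GRCm38.p6, chr19:34255324-34255623, minus strand) and Cnn1 (chr9:22099003-22099302, plus strand) are set side by side because only Acta2 of this pair was above background in globule-containing areas. Capitals mark a TEAD site (GGAATG) in Acta2, which begins 146 bases before the annotated start. The CArG box was searched only as an exact pattern (CCWWWWWWGG, W for A or T). The near matches ccctatatgg and ccttgtttgg in the Acta2 window are therefore not marked. The TATA box was likewise searched only as exact TATAAA. The stretch tatataa, within the 50 bases after the annotated start of Acta2, is therefore not marked either. No searched motif was found in the Cnn1 window, which says only that these letters are absent there.
Acta2: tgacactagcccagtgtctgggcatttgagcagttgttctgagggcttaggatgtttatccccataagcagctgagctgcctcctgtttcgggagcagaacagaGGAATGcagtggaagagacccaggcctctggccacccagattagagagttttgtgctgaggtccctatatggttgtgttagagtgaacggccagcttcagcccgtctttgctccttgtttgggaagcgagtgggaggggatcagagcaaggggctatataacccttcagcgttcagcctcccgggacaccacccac
Cnn1: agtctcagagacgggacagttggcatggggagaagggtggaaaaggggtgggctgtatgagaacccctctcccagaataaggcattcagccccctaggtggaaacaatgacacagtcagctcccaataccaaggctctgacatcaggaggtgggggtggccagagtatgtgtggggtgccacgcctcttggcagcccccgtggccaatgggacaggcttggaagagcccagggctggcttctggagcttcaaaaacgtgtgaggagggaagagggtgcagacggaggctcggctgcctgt

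Small leucine-rich proteoglycans had the largest differences of the matrix genes. Of 8 members, 6 were higher by 2-fold or more in globule-containing areas and none lower, with a median of 1.95. With dim values raised to background, 5 were still higher by as much, without Fmod. Lum (TC1000001190.mm.1) encodes lumican, a keratan sulfate proteoglycan that regulates fibril thickness. It had 13.24 in globule-containing areas against 9.32 in globule-free areas, 15.2-fold higher, and ranked 37 of 15023. Dcn (TC1000001189.mm.1) encodes decorin, which coats collagen fibrils and binds TGF-beta. Its signal was 15.22 with globules against 11.80 without, 10.7-fold higher, at rank 51. Bgn (TC0X00000685.mm.1) encodes biglycan, the closest relative of decorin, and had 13.75 with globules against 10.36 without, 10.5-fold higher, at rank 54. All 3 were well above background on both arrays.

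The other members of the family were higher by less or were not detected. Prelp, which anchors basement membranes to connective tissue, had 12.79 in globule-containing areas against 10.85 in globule-free areas, 3.83-fold higher. Ogn, which encodes osteoglycin (mimecan), had 7.28 with globules against 5.33 without, 3.87-fold higher. Fmod encodes fibromodulin, which binds collagen I fibrils. It had 5.80 in globule-containing areas against 4.29 in globule-free areas, at background, and was at least 1.70-fold higher. Podn, which encodes podocan, had 5.0 with globules against 4.80 without, next to background. Aspn encodes asporin, a relative of decorin, and lay at background on both arrays at 4.44 with globules and 4.61 without.

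Most of these proteoglycan genes lie in clusters with their relatives, and neighbours within a cluster differed in signal. On chromosome 10 the RefSeq order is Dcn, Lum, Kera and Epyc. Kera, the keratocan gene of the cornea, had 4.67 in globule-containing areas against 5.34 in globule-free areas. Epyc, which encodes epiphycan of cartilage, lay at background at 3.69 with globules and 4.13 without. The 2 higher genes of this cluster were thus Dcn and Lum, next to each other. On chromosome 1, Optc, the opticin gene of the eye, lay at background at 4.78 with globules and 4.93 without, beside Prelp and Fmod. On chromosome 13 the order is Ecm2, Aspn, Omd and Ogn. Omd, the osteomodulin gene, had 7.55 in globule-containing areas against 8.44 in globule-free areas, 1.86-fold lower beside the 3.87-fold higher Ogn. Ecm2, chosen for its place in the cluster after the values were seen, lay at background at 4.67 with globules and 4.42 without. Nyx, the nyctalopin gene of the retina, had 5.11 with globules against 5.49 without. Of 7 measured relatives outside the set, none was higher by 2-fold or more or lower, and 4 lay at background on both arrays.

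**Figure D3:**
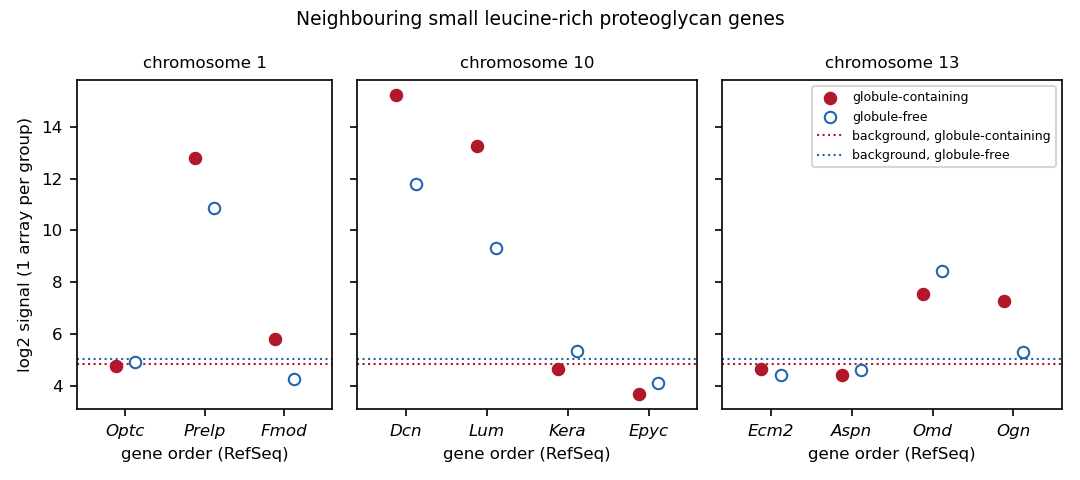
Log2 signal in globule-containing (filled) and globule-free (open) areas, 1 array each, for the small leucine-rich proteoglycan genes of 3 chromosomes in RefSeq order. Dcn and Lum, Prelp and Ogn were above background and higher in globule-containing areas, while Kera, Epyc, Optc, Ecm2 and Aspn lay at or near background (dotted lines) and Omd had 7.55 with globules against 8.44 without.

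The promoters of Ogn (GRCm38.p6, chr13:49607765-49608064, plus strand) and Aspn (chr13:49544193-49544492, plus strand) are shown because these members share the chromosome 13 cluster and only Ogn was measurable. Capitals in Ogn mark overlapping TATA box motifs on the opposite strand (TTTATA) and on the printed strand (TATAAA), which begin 229 and 227 bases before the start, and a TEAD site (GGAATG) 86 bases before it. Capitals in Aspn mark TATAAA at 207 and TTTATA at 178 bases before the start. The TATA motifs of both windows lie far from the start.
Ogn: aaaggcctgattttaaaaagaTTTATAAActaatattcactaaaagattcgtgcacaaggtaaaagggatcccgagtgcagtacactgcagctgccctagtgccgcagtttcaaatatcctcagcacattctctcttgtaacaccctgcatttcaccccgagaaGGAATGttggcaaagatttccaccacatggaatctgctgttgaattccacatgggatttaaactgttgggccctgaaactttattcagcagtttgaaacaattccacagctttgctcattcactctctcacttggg
Aspn: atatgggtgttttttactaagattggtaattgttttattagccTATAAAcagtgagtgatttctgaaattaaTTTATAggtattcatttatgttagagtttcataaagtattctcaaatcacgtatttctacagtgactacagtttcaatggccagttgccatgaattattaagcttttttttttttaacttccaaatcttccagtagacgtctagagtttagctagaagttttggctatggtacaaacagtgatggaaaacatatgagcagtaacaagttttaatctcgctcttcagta

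Elastic fibre genes comprised 2 higher fibulins, 2 genes within 2-fold and 3 genes that were not detected. Of 7 measured members, 2 were higher by 2-fold or more in globule-containing areas, none was lower, and 3 lay at background on both arrays, with a median of 0.36. Fbln5 encodes fibulin-5, which is needed for elastic fibre assembly. It had 6.90 in globule-containing areas against 5.06 in globule-free areas, 3.58-fold higher, with the globule-free signal close to the background of 5.04. Efemp1, which encodes fibulin-3, had 7.27 with globules against 5.92 without, 2.54-fold higher. Mfap4, a microfibril-associated glycoprotein, had 5.83 with globules against 5.16 without, a 1.59-fold difference. Eln, the elastin gene that marks portal fibroblasts and vessel walls, had 6.41 with globules against 6.04 without, a 1.29-fold difference. Fbln1, Fbln2 and Mfap5 had signals between 3.89 and 4.49 on both arrays, all at background, and Fbln2 is a portal fibroblast marker.

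Adhesive and matricellular glycoproteins were mostly higher in globule-containing areas, with fibronectin in the opposite direction. Of 10 measured members, 6 were higher by 2-fold or more and 1 lower by 2-fold or more, with a median of 1.35. With dim values raised to background, 5 were still higher by as much, without Sparcl1. Postn encodes periostin, which is secreted by activated fibroblasts. It had 7.37 in globule-containing areas against 5.43 in globule-free areas, 3.86-fold higher. Thbs1 encodes thrombospondin 1, an activator of latent TGF-beta. It had 6.78 in globule-containing areas against 4.82 in globule-free areas, at background, and was at least 3.36-fold higher. Sparc encodes osteonectin, a collagen-binding protein of stellate and endothelial cells, and had 13.30 with globules against 11.81 without, 2.80-fold higher. Gas6, the vitamin K-dependent ligand of the Axl receptor, had 9.23 with globules against 8.02 without, 2.31-fold higher, while Axl itself, outside the set, had 7.17 with globules against 6.94 without.

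In the same group, 3 further genes lay at background in globule-free areas alone. Tnc encodes tenascin C, a matrix protein of wounds, and was at least 2.04-fold higher at 6.07 with globules against 4.36 without. Sparcl1, a relative of Sparc, was at least 1.76-fold higher at 5.85 with globules against 4.24 without. Thbs2, which encodes thrombospondin 2, was at least 1.79-fold higher at 5.88 with globules against 4.92 without. Vcan, which encodes the large proteoglycan versican, lay at background on both arrays at 4.01 with globules and 3.81 without. So did Thy1, a surface protein of portal fibroblasts and T cells, at 4.83 with globules and 4.42 without. Portal fibroblast markers outside the set were measured as well. Of 11, 6 lay at background on both arrays and 3 were higher by 2-fold or more, or 2 with dim values raised to background. Mean signals of the 11 were 5.24 in globule-containing areas against 4.62 in globule-free areas. Mgp, the matrix Gla protein, had 8.91 with globules against 5.54 without and was 10.4-fold higher, and Dpt, which encodes dermatopontin, was at least 2.78-fold higher. Entpd2, an ectonucleotidase, was at least 1.98-fold higher at 6.02 with globules against 4.80 without.

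Fn1 encodes fibronectin, and the liver form in plasma comes from hepatocytes. It had 14.81 in globule-containing areas against 15.82 in globule-free areas, 2.01-fold lower. The difference of -1.01 sits at the 2-fold threshold. After a shift of both arrays to the same median it was under 2-fold, and after loess it was -1.30. It lies beside 5 of 13 hepatocyte markers that were lower by 2-fold or more, among them Cps1, the first enzyme of the urea cycle, at 16.48 with globules against 18.85 without. The other 8 hepatocyte markers lay within 2-fold, among them Fgb with a difference of -0.87, Ttr with -0.03 and Cyp2e1 with 0.12. Of these 8, Alb and Tf lay at the ceiling of both arrays. The probe set does not separate the plasma form from the cellular form of fibronectin.

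Basement membrane genes were higher by smaller amounts. Of 5 members, 2 were higher by 2-fold or more in globule-containing areas and none lower, with a median of 0.92. With dim values raised to background, 1 (Nid1) was still higher by as much. Nid1 encodes nidogen 1, which links laminin to collagen IV. It had 8.51 in globule-containing areas against 7.05 in globule-free areas, 2.76-fold higher. Its relative Nid2 lay at background on both arrays at 4.69 with globules and 4.79 without. Lamc1, the laminin gamma 1 chain shared by most laminins, had 7.56 with globules against 6.64 without, a 1.89-fold difference. The laminin chains Lama2 and Lamb1 lay at background in globule-free areas, so their differences are bounds. Lama2 was at least 1.71-fold higher at 5.81 with globules against 4.80 without, and Lamb1 at least 1.54-fold at 5.65 with globules against 4.97 without.

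Other genes of stellate cells and matrix, taken from 6 lists outside the set, were also measured. Of 97 measured genes, 18 (18.6%) were higher by 2-fold or more and 3 lower, with a median of 0.28, and 14 were higher with dim values raised to background. Of all 30142 genes, 3.41% were higher and 2.87% lower, which are the shares to set beside each list count below. The 3 lower genes are near the share of all genes. Among 25 collagens and collagen-processing genes, 6 were higher and 1 lower, with a median of 0.38, and 5 were higher with dim values raised. Col3a1, the fibrillar collagen III chain, had 8.09 in globule-containing areas against 5.65 in globule-free areas, 5.40-fold higher. Col14a1, a fibril-associated collagen that binds decorin, was 3.57-fold higher at 9.40 with globules against 7.56 without. Col6a3 of microfibrillar collagen VI was at least 4.44-fold higher at 7.19 with globules against 4.94 without.

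Of 16 other stellate genes, 4 were higher by 2-fold or more and none lower. Rspo3, an enhancer of Wnt signalling, was 8.24-fold higher at 8.86 with globules against 5.82 without. Tcf21, a mesenchymal transcription factor, had 7.82 with globules against 5.87 without, and Ednrb, an endothelin receptor, 10.50 with globules against 8.56 without. Of 9 genes of retinoid handling, 1 was higher by 2-fold or more. This was Lrat, which makes the retinyl ester that stellate cells store, at 9.10 with globules against 5.64 without. The next by size were Rarb, a retinoic acid receptor, at 6.25 with globules against 5.55 without, and Rdh10, a retinol dehydrogenase, at 6.98 with globules against 7.35 without.

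Activation signals and matrix receptors had medians of 0.24 over 21 and 0.23 over 19 genes. Of the signals, 3 were higher by 2-fold or more and none lower, and 1 of them, Tgfbr2, was still called with dim values raised to background. Tgfbr2, a TGF-beta receptor, was 2.71-fold higher at 8.07 with globules against 6.63 without. Tgfb3 was at least 1.69-fold higher at 5.80 with globules against 4.36 without. The third, Tgfb2, was near background at 4.93 with globules against 3.93 without. Ccn2, a TGF-beta target known as CTGF, had 7.09 with globules against 6.10 without. Of the matrix receptors, 4 were higher by 2-fold or more and 2 lower, and 3 were higher with dim values raised. Itga8, an integrin chain of stellate cells, was 2.66-fold higher at 8.17 with globules against 6.76 without. The heparan sulfate proteoglycan Sdc2 was 3.17-fold lower at 10.41 with globules against 12.08 without, and Sdc4 was 3.70-fold lower.

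**Figure D4:**
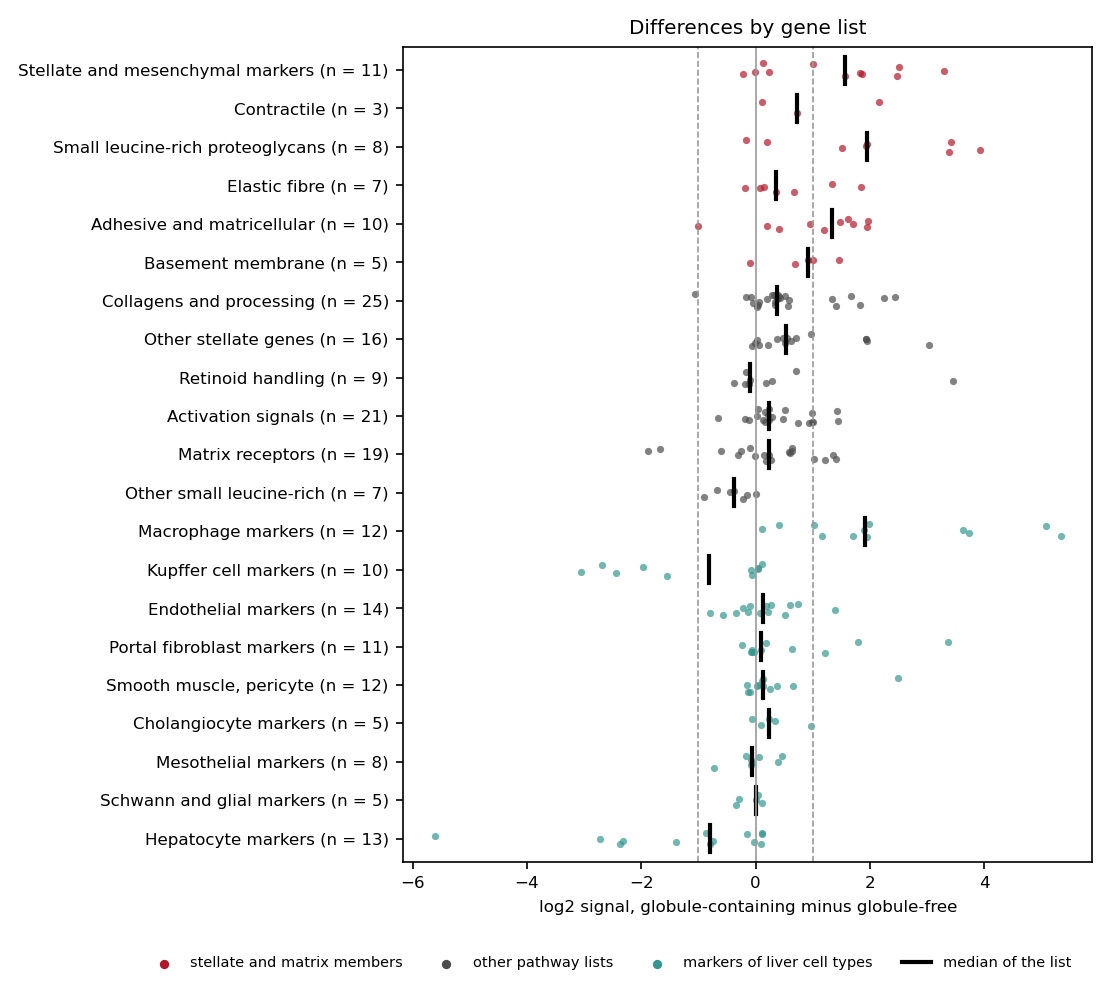
Difference of each gene (points) and median of each list (black bars) as log2 signal in globule-containing minus globule-free areas, with dashed lines at a 2-fold difference and n the measured genes. Medians of the small leucine-rich proteoglycans (1.95), macrophage markers (1.92), stellate markers (1.57) and adhesive and matricellular genes (1.35) lie to the right of 1. The Kupffer (-0.81) and hepatocyte medians (-0.80) are the lowest.

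Of the mesothelial, Schwann and glial, cholangiocyte and endothelial markers, only Eng was 2-fold or more apart. Most mesothelial and glial markers lay at background on both arrays, where no difference can be measured. Portal fibroblast, smooth muscle and pericyte markers, some of them higher, are given above. Of 8 mesothelial markers, 6 lay at background on both arrays and none was 2-fold or more apart, with means of 4.41 in globule-containing areas against 4.44 in globule-free areas. The 3 at or above the floor differed by 0.46 (Upk1b), -0.09 (Podxl) and 0.06 (Gpm6a). Of 5 Schwann and glial markers, 4 lay at background on both arrays, with means of 4.05 with globules and 4.14 without. The remaining one, Sox10, had 4.89 with globules against 4.78 without. Of 5 cholangiocyte markers, 2 lay at background on both arrays and none was higher by 2-fold or more. Epcam, an epithelial adhesion molecule, was at least 1.67-fold higher at 5.77 with globules against 4.81 without. The transcription factor Sox9 had 6.11 with globules against 5.88 without, and Krt19, the bile duct keratin, had 5.11 with globules against 4.77 without. Of 14 endothelial markers, 13 lay within 2-fold, with means of 7.35 in globule-containing areas against 7.22 in globule-free areas. Eng, which encodes endoglin, had 9.95 with globules against 8.57 without, while Fcgr2b, an Fc receptor of sinusoidal endothelium, was 1.68-fold higher, and Cdh5, which encodes VE-cadherin, had 8.11 with globules against 8.91 without.

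Shares of promoter windows with each searched motif are given beside those of all promoters, and no difference between them was tested. RefSeq promoters were found for 33 of the 48 genes, 42 windows in all, and were searched on both strands. The TATA box (TATAAA) occurred anywhere in the window in 8 of the 42 (19.0%), which belong to 7 genes, against 13.6% of 32851 promoters. The TEAD site (GGAATG) occurred in 3 (7.14%), against 14.7%. The AP-1 site (TGANTCA) occurred in 2 (4.76%), against 7.81%. An exact CArG box (CCWWWWWWGG, W for A or T) occurred in 1 (2.38%), the Lama2 promoter, against 1.63%. Near matches were not counted, such as ccctatatgg and ccttgtttgg in the Acta2 window, each 1 base off this pattern. The CArG count therefore does not say that the other windows lack such a site. The SMAD element (GTCTAGAC) occurred in none, against 0.213%. Several windows belong to the same gene, and a match is a run of letters, not a measured site.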

How the data were processed

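RNA of laser-captured globule-containing and globule-free areas was measured on 1 array per group. Per the labels' protocols, a PicoPure kit gave the RNA, of which 50 ng was amplified and labelled with a NuGEN kit. The authors deposited log2 signals for 72688 probe sets. The submitters' processing notes name the Transcriptome Analysis Console. Background correction, array normalization and the build were not given in the sources used here.

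Genes were named from the platform annotation. Of the probe sets, 30604 named 1 gene and were averaged to 30142 genes, 2146 named several and were left out, and 39938 had none listed here. Entrez IDs updated 827 symbols through RefSeq (GRCm38.p6). The floor was the median over probe sets naming 1 gene (4.76). Signals within 0.2 of an array's maximum were taken as its ceiling. Genes were called at a 2-fold difference. No test was run, since 1 array per group leaves no residual degrees of freedom. Precision is limited by the number of arrays.

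All measured members are named, as are the 3 genes with the largest difference among genes at or above the floor in each list outside the set, and some further genes chosen after their values were seen. The members, lists, background level and role groups were chosen with earlier results of these data known. The calling step was tested on simulated data. Alternatives covered scaling, floor, threshold, probe set choice, dim values and probe sets naming several genes. Python 3.11.15, numpy 2.4.6, pandas 2.3.3, statsmodels 0.14.6 and matplotlib 3.10.9 were used.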

Additional observations from a re-analysis of the deposited data

Results flagged for a closer look

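Both members measured by probe sets that also name a microRNA, and so outside the values above, had higher signals in globule-containing areas. Ecm1, a secreted glycoprotein of the extracellular matrix that hepatocytes and stellate cells make, had 8.89 in globule-containing areas against 7.69 in globule-free areas, a difference of 1.19. Pdgfra, the alpha receptor for PDGF on fibroblasts and stellate cells, had 5.83 with globules against 5.12 without, a difference of 0.71. Which transcript of the named pair gives the signal was not tested, and Ecm1 would be the 25th gene of the set higher by 2-fold or more.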

How the results depend on the processing

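Every value rests on 1 array per group, so processing choices are the only check on it, and low signals limit it too. A log2 value counted as moved when it shifted by more than 0.17, the median gap between 2 probe sets of 1 gene. The 24 genes called higher stayed so after a shift of both arrays to the same median and after quantile normalization, and 23 did after loess, which lost Hand2. Raising dim values to background left 20, without Hand2, Fmod, Sparcl1 and Lama2. Fn1 was no longer called lower (0 genes) after the median shift. No called gene changed sign under any alternative run.

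Medians at the floor of 4.76 were 1.57 for the 33 members above it, 1.85 for stellate markers, 1.45 for contractile genes, 1.95 for small leucine-rich proteoglycans, 1.01 for elastic fibre, 1.55 for adhesive and 0.96 for basement membrane genes. With no floor they were 1.11 for all members, 1.57 for stellate markers, 0.72 for contractile, 0.36 for elastic fibre and 1.35 for adhesive genes, and outside the set -0.10 for retinoid handling (0.18 with the floor) and 0.23 for matrix receptors (0.59). With the floor at the 75th percentile, 12 of 14 members were called higher with a median of 1.90, and medians were 2.48 for stellate markers, 3.40 for small leucine-rich proteoglycans, 1.20 for adhesive and 1.19 for basement membrane genes. Of the other lists, 11 of 30 genes were then called higher, and 642 of all 7478 genes at or above that floor. Outside the set, medians were 1.93 for other stellate genes (0.62), 0.93 for collagens (0.41), 0.021 for activation signals (0.38), 0.41 for matrix receptors and -0.90 for other small leucine-rich genes (-0.52). Fewer genes enter these medians by construction. Each floor is set on the mean of both arrays, so a gene can reach it through a high signal on 1 array. Vim and Lamc1 reached the 75th percentile floor of 6.70 with globule-free signals of 6.19 and 6.64. Shares and medians at a floor are therefore partly set by the filter.

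With dim values raised, the medians of adhesive genes and matrix receptors were 1.12 and 0.27. Matrix receptors had 0.38 after quantile normalization and 0.39 after loess. With only genes above background on both arrays, chosen after seeing the data, medians were 1.84 for members, 0.72 for contractile (Tagln alone), 3.39 for small leucine-rich proteoglycans, 1.35 for adhesive and 1.19 for basement membrane genes and 0.27 for matrix receptors. At 1.5-fold, 27 of 67 genes of the other lists at or above the floor were higher and 7 lower, against 17 and 3 at 2-fold. Of all 15023 genes at or above the floor, 2406 were higher and 1786 lower at 1.5-fold, against 972 (6.47%) and 790 (5.26%) at 2-fold. At 4-fold, 7 members were higher and 0 lower, 4 and 0 in the other lists, and 213 and 198 of the 15023 genes. The cause of these moves was not tested. No replicate could be left out. No paired analysis was possible because each group is 1 array.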
